A study of Rattus norvegicus with 36 samples.

Results

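Cyp1a1 and Cyp1a2 are the inducible and the constitutive cytochrome P450 of family 1A in rat liver, and their transcripts were followed across a dose series of decabromodiphenylethane (DBDPE), a brominated flame retardant. Both genes were taken by the platform's gene symbol, among probe sets that name a single gene. Each had 1 probe set, so the genes described are 2 of 14217 measured, on 2 of 31042 probe sets. They were selected on their log2 levels at 97.1 and 970 mg/kg against vehicle, so their levels and differences between doses are given as a description without a test. Tests are kept for how other transcripts varied with them between animals of the same dose.

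The animals were male Harlan Sprague Dawley rats aged 7 weeks when dosing began, fed NTP-2000 diet. They received DBDPE in corn oil by gavage at 5 ml/kg on 5 consecutive days, and RNA from the left lobe of the liver, taken 1 day after the last dose, was hybridised to Affymetrix 3′ IVT arrays. There were 6 vehicle samples from rats that received corn oil alone, 6 samples each at the low doses of 0.1 and 0.97 mg/kg per day, 6 at 9.71 mg/kg, and 6 each at the top doses of 97.1 and 970 mg/kg. Samples carry a number within their dose, and 1 rat per sample was assumed, so every p-value measures the spread between these samples.

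As background, Cyp1a1 and Cyp1a2 are classical targets of the aryl hydrocarbon receptor (AhR), a ligand-activated transcription factor. With a ligand bound, AhR enters the nucleus, pairs with ARNT and binds dioxin response elements, which raises transcription of its targets. Cyp1a1 oxidises polycyclic aromatic hydrocarbons and is scarcely expressed in untreated liver. Cyp1a2 metabolises caffeine and arylamines and is made constitutively, chiefly in hepatocytes around the central vein.

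The promoter of Cyp1a2 is shown as the region just upstream of the transcript that is both constitutive and raised by dose. In the RefSeq table for build GRCr8, which matched 1 of the 2 genes, the window spans chr8:66978100-66978399 on the minus strand, with 250 bases before and 50 bases after the gene's start. Capitals mark the only match to TATAAA, read on the gene's strand, which starts 39 bases before the gene's start.

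Cyp1a2 promoter: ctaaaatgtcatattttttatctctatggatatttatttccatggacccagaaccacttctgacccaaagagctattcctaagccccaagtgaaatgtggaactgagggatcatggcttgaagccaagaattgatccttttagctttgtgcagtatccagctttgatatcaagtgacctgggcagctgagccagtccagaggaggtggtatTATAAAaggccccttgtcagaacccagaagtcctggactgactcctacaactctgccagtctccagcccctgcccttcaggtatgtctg

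TATAAA occurred in 8.80% of the 33469 RefSeq promoter windows of the same length. The core letters of the dioxin response element, GCGTG, searched on both strands, occurred in 29.7% of those windows and not in that of Cyp1a2, which says only that these letters are not in these 300 bases.

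The arrays were alike in quality. The median log2 signal of an array was 5.07 to 5.12, pairs of arrays correlated across probe sets at r = 0.993 to 0.997, and 0 pairs held identical values. The tissue label was checked with 8 hepatocyte markers, of which 7 were measured. Their mean log2 level lay between 13.57 and 13.66 in the 970 mg/kg livers and between 13.61 and 13.70 in the vehicle livers. RNA quality was read from the beta-actin controls, whose 3′ minus 5′ log2 signal averaged 1.12 ± 0.07 in vehicle, 1.12 ± 0.05 at 97.1 mg/kg and 1.19 ± 0.08 at 970 mg/kg (SD, n = 6 each); its part in the levels was not tested. In tissue RNA, fewer cells of a type and less RNA per cell cannot be told apart.

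Cyp1a1 was higher than in vehicle livers in every animal at 97.1 and 970 mg/kg. Its log2 level in vehicle livers had a lowest value of 4.35, a median of 4.55 and a highest value of 4.76. At 0.1 mg/kg the lowest, median and highest levels were 4.18, 4.67 and 4.75, and at 0.97 mg/kg they were 4.50, 4.69 and 5.07. These groups overlapped one another, and in each of their animals Cyp1a1 lay below that animal's array median. At 9.71 mg/kg the lowest, median and highest levels were 4.64, 4.86 and 5.09, with 4 of 6 animals above the highest vehicle animal. At 97.1 mg/kg the levels were 6.66, 8.22 and 9.26, and at 970 mg/kg they were 10.02, 10.81 and 11.81. At both of these doses no animal overlapped vehicle, and the 970 mg/kg group lay entirely above the 97.1 mg/kg group.

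**Figure D1:**
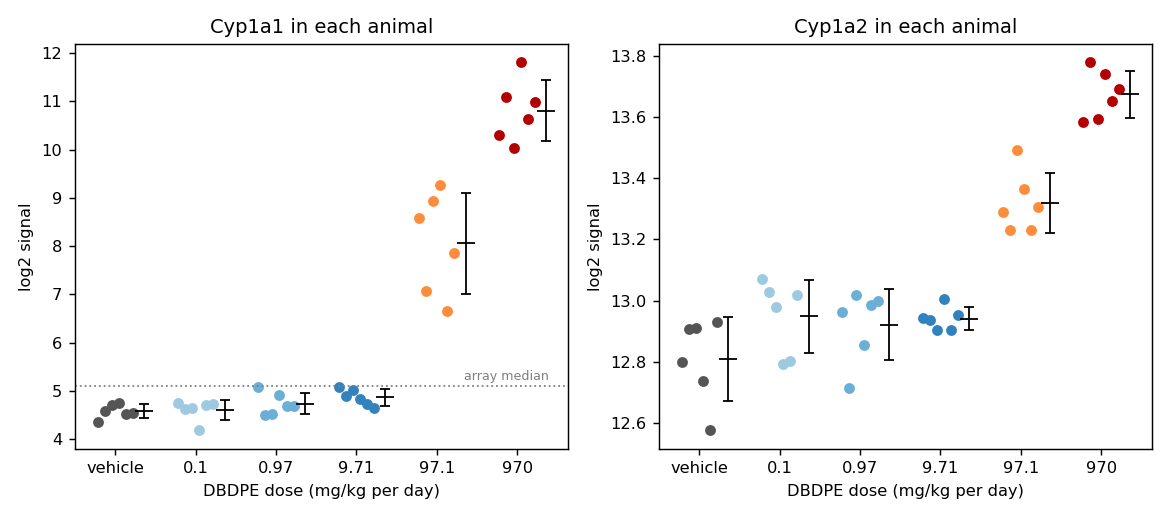
Log2 signal (vertical axes) of Cyp1a1 on the left and Cyp1a2 on the right against the DBDPE dose in mg/kg per day, 1 point per animal, with group means and SD bars (n = 6 each) and the mean array median as a dotted line. Both genes step up at 97.1 and again at 970 mg/kg, and the Cyp1a1 animals at 97.1 mg/kg are spread from 6.66 to 9.26.

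Relative to vehicle, the mean log2 level of Cyp1a1 was higher by 3.49 at 97.1 mg/kg (95% interval 2.92 to 4.05, an 11.2-fold difference) and by 6.23 at 970 mg/kg (5.66 to 6.80, 75.2-fold). Over all probe sets, 0.0548% had their lowest 97.1 mg/kg animal above the highest vehicle animal, and 0.116% did so at 970 mg/kg. At 0.1, 0.97 and 9.71 mg/kg the shares were 0.0805%, 0.129% and 0.0709%, and neither gene was among them. As both genes were chosen for these contrasts, nothing is read from the shares. At the lower doses the differences from vehicle were 0.03 at 0.1 mg/kg (-0.54 to 0.60), 0.16 at 0.97 mg/kg (-0.41 to 0.73) and 0.29 at 9.71 mg/kg (-0.28 to 0.86). These intervals share 1 spread over all doses, which the top doses widen. With the 9.71 mg/kg and vehicle livers alone, the interval of the 0.29 difference was 0.11 to 0.47, while those at 0.97 and 0.1 mg/kg still held 0. Leaving out any 1 animal kept the 9.71 mg/kg difference between 0.25 and 0.34.

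Cyp1a2 was likewise higher than in vehicle livers in every animal at 97.1 and 970 mg/kg. Its log2 level in vehicle livers had a lowest value of 12.58, a median of 12.85 and a highest value of 12.93. The lowest, median and highest levels were 12.79, 13.00 and 13.07 at 0.1 mg/kg, 12.71, 12.97 and 13.02 at 0.97 mg/kg, and 12.90, 12.94 and 13.00 at 9.71 mg/kg. Each of these 3 groups overlapped vehicle, and each had 4 animals above the highest vehicle animal. At 97.1 mg/kg the levels were 13.23, 13.30 and 13.49, and at 970 mg/kg they were 13.58, 13.67 and 13.78. Both groups lay entirely above vehicle, and the 970 mg/kg group lay above the 97.1 mg/kg group by a gap of 0.09 on the log2 scale.

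The mean log2 level of Cyp1a2 exceeded vehicle by 0.51 at 97.1 mg/kg (95% interval 0.38 to 0.63, 1.42-fold) and by 0.86 at 970 mg/kg (0.74 to 0.99, 1.82-fold). At 0.1, 0.97 and 9.71 mg/kg the difference was 0.14 (0.01 to 0.26), 0.11 (-0.01 to 0.24) and 0.13 (0.01 to 0.26), with no order by dose. With each dose and vehicle alone, all 3 of those intervals held 0. The lowest vehicle animal, replicate 5, weighed on them, and without it the 9.71 mg/kg difference was 0.08 (-0.04 to 0.21).

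The dose curve of both genes was a shallow stretch up to 9.71 mg/kg followed by 2 steep steps. For Cyp1a1 the step over the 10-fold dose increase to 97.1 mg/kg was 3.19 log2 units relative to 9.71 mg/kg, a 9.15-fold difference, with a gap of 1.57 between the groups. The step from there to 970 mg/kg was 2.75 log2 units relative to 97.1 mg/kg, 6.72-fold, with a gap of 0.76. Among all probe sets, 0.0677% separated the 970 mg/kg animals upward from all 97.1 mg/kg animals, a share that includes both genes by choice. The same 2 steps for Cyp1a2 measured 0.38 and 0.35 log2 units, or 1.30-fold and 1.28-fold, with gaps of 0.23 and 0.09.

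As a share of the log2 rise to 970 mg/kg, 4.67% of the Cyp1a1 rise was present at 9.71 mg/kg and 55.9% at 97.1 mg/kg. For Cyp1a2 those shares were 15.2% and 59.0%. Its share was already 16.0% at 0.1 mg/kg and 12.95% at 0.97 mg/kg, so up to 9.71 mg/kg it had no order by dose. On the linear scale the whole signal, vehicle level included, was set against that at 970 mg/kg. The genes differ more there, because the log2 rise of Cyp1a1 spans many doublings while Cyp1a2 rose less than 2-fold. Back-transformed from the log2 means, the signal at 97.1 mg/kg was 14.9% of that at 970 mg/kg for Cyp1a1 and 78.2% for Cyp1a2. At 9.71 mg/kg it was 1.63% for Cyp1a1 and 60.2% for Cyp1a2. Most of the 60.2% is vehicle level, as the 970 mg/kg signal of Cyp1a2 was only 1.82-fold that of vehicle. By straight-line interpolation of the log2 means on a log dose axis, Cyp1a1 stood 1.41-fold above vehicle at 11.3 mg/kg and 2-fold above it at 16.2 mg/kg. Cyp1a2 stood 1.41-fold above vehicle at 91.7 mg/kg and was below 2-fold at every dose. No dose was given between 9.71 and 97.1 mg/kg, so these interpolated doses rest on the line drawn between them.

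In log2 units the last step was nearly as large as the one before it for both genes, 2.75 after 3.19 for Cyp1a1 and 0.35 after 0.38 for Cyp1a2. As 970 mg/kg was the highest dose given, the level at which either gene stops rising was not measured. Whether the array responds evenly up to the level of Cyp1a2 was not tested.

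At 97.1 and 970 mg/kg the animals of a group spread more widely in Cyp1a1 than in Cyp1a2. In vehicle and at the 3 lower doses the SD of the Cyp1a1 log2 level was between 0.15 and 0.22, and the highest animal was 1.33-fold to 1.49-fold above the lowest. At 97.1 mg/kg the SD was 1.05, larger than for all but 24 of 31042 probe sets, with a 6.07-fold range. At 970 mg/kg it was 0.63, exceeded by 124 probe sets, with a 3.44-fold range. The SD of Cyp1a2 was 0.14 in vehicle, 0.12 at both 0.1 and 0.97 mg/kg, 0.04 at 9.71 mg/kg, where 30746 probe sets varied more, 0.10 at 97.1 mg/kg and 0.08 at 970 mg/kg. Its highest and lowest animals differed by 1.14-fold at 970 mg/kg and 1.20-fold at 97.1 mg/kg.

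Single animals show what that spread consisted of. In the order of the sample numbers, the Cyp1a1 rise above the vehicle mean at 970 mg/kg was 5.73, 6.52, 5.45, 7.23, 6.07 and 6.40 log2 units. At 97.1 mg/kg it was 4.01, 2.49, 4.35, 4.69, 2.09 and 3.28. The lowest 970 mg/kg rise was above the highest 97.1 mg/kg rise, and within 97.1 mg/kg animals 2 and 5 stood below the rest. Cyp1a2 rises in the same order were 0.77, 0.97, 0.79, 0.93, 0.84 and 0.88 at 970 mg/kg. They were 0.48, 0.42, 0.68, 0.56, 0.42 and 0.50 at 97.1 mg/kg, where animals 2 and 5 were again the lowest.

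**Figure D2:**
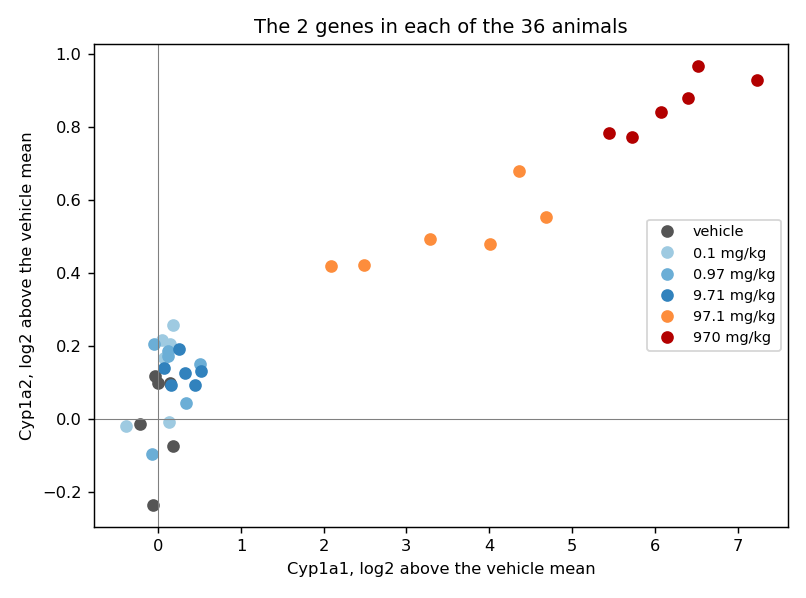
Rise above the vehicle mean in log2 units, Cyp1a2 on the vertical axis against Cyp1a1 on the horizontal, 1 point for each of the 36 animals, coloured by dose in mg/kg per day. Rises of both genes separate the 97.1 and 970 mg/kg animals from the other 24, and within each of these doses animals with more Cyp1a1 tend to have more Cyp1a2.

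The ratio of the genes changed with dose. Because a probe set's level cannot be set against another's, the ratio is given as its change from vehicle, the Cyp1a1 rise minus the Cyp1a2 rise. It was -0.11 ± 0.17 at 0.1 mg/kg, 0.05 ± 0.23 at 0.97 mg/kg, 0.16 ± 0.18 at 9.71 mg/kg, 2.98 ± 0.97 at 97.1 mg/kg and 5.37 ± 0.57 at 970 mg/kg (log2, SD, n = 6 each). Per animal it lay between 4.67 and 6.30 at 970 mg/kg and between 1.66 and 4.13 at 97.1 mg/kg, so those groups did not overlap.

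Expressed the other way, the Cyp1a2 rise per animal was 12.9% to 14.9% of the Cyp1a1 rise in log2 units at 970 mg/kg, with a mean of 13.9 ± 0.70% (SD, n = 6). At 97.1 mg/kg it was 11.9% to 20.2%, with a mean of 15.3 ± 3.16% (SD, n = 6). The 97.1 mg/kg range holds the 970 mg/kg range. The share was lowest at 97.1 mg/kg in animals 1 and 4, which had 4.01 and 4.69 log2 units of Cyp1a1 rise. It was highest in animal 5, which had the smallest rise, 2.09. Animal 3, with a rise of 4.35, had a share of 15.7%, above the group's median of 15.4%. As the Cyp1a1 rise is the divisor of the share, the share is not independent of it.

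Between animals of a dose, the levels of the genes correlated positively at the top doses, but neither correlation passed the adjustment over the 6 groups. At 970 mg/kg Pearson's r was 0.849 (exact permutation p = 0.0361, adjusted p = 0.108) and Spearman's rho was 0.886 (exact permutation p = 0.0333, adjusted p = 0.1), over 6 animals. Without the 2 animals farthest from the Cyp1a1 median r was 0.950. At 97.1 mg/kg r was 0.784 (exact permutation p = 0.0361, adjusted p = 0.108) and rho was 0.886 (exact permutation p = 0.0333, adjusted p = 0.1). There r was 0.533 without the 2 farthest animals, 2 and 5 being low in both genes.

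At the other doses no such relation was found. Pearson's r was 0.133 in vehicle (exact permutation p = 0.764), 0.631 at 0.1 mg/kg (p = 0.261), 0.188 at 0.97 mg/kg (p = 0.817) and -0.155 at 9.71 mg/kg (p = 0.781), with adjusted p of 0.522 or more. Without the 2 animals farthest from the Cyp1a1 median, these were 0.504, -0.41, 0.575 and -0.152. The 0.1 mg/kg value therefore rests on those animals, one of which had the lowest Cyp1a1 level of the study, 4.18. Spearman's rho was 0.143, 0.6, -0.0857 and -0.143 for the same 4 groups, with exact permutation p from 0.242 to 0.919. Whether r differed between doses was not tested.

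Which other transcripts followed Cyp1a1 between animals of a dose was asked with a slope, the log2 change of a transcript per log2 unit of Cyp1a1 once each dose's mean is removed. Of the variation in Cyp1a1 that carries this slope, 66.7% came from the 6 animals at 97.1 mg/kg and 24.5% from those at 970 mg/kg. No transcript passed limma's test over the 31041 other probe sets at an adjusted p under 0.05 (0%). At an unadjusted p under 0.05 there were 1595, or 5.14%, and the smallest adjusted p was 0.426. The slope of Cyp1a2 was 0.09 (95% interval 0.02 to 0.16, limma adjusted p = 0.936), and leaving out any 1 animal kept it between 0.07 and 0.10. Its slope was 0.10 at 970 mg/kg and 0.07 at 97.1 mg/kg, a difference of 0.03 with an interval of -0.13 to 0.19 (limma adjusted p = 0.999).

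The transcripts of smallest p in each direction are named although none passed. Those with a positive slope were Arhgef40 at 0.20 (0.11 to 0.29, limma adjusted p = 0.478), the magnesium transporter family gene Slc41a3 at 0.20 (0.09 to 0.31, adjusted p = 0.869) and Rhbdd2 at 0.23 (0.10 to 0.35, adjusted p = 0.869). Those with a negative slope were the phosphatase gene Ctdsp2 at -0.16, the endosomal sodium/proton exchanger gene Slc9a9 at -0.17 and the ubiquitin ligase gene Rfwd3 at -0.23, each with an adjusted limma p of 0.478. Their slopes kept their sign with any 1 animal left out. Arhgef40 and Slc41a3 were dim, at mean log2 levels of 4.25 and 4.40 beside a lowest array median of 5.07. The median 95% interval of a slope reached 0.10 log2 units to either side of its estimate, which limits the slopes that could be seen.

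With Cyp1a2 as the measure in place of Cyp1a1, no transcript passed either (0% of 31041, with 1518 at an unadjusted p under 0.05). The nearest was Acsm2, a mitochondrial medium-chain acyl-CoA synthetase gene, with a slope of 3.07 log2 units per log2 unit of Cyp1a2 (1.94 to 4.20, limma adjusted p = 0.107). It passed without replicate 6 at 0.97 mg/kg (3.24, adjusted p = 0.0255) and without replicate 4 at 970 mg/kg (3.20, adjusted p = 0.0355). Its slope on Cyp1a1 was 0.22 (-0.08 to 0.51). The creatine transporter gene Slc6a8 had 0.97 (adjusted p = 0.428) and the organic cation transporter gene Slc22a3 had 0.84 (adjusted p = 0.808). In the negative direction stood Rab37 at -0.94, Rap1gap2 at -0.74 and Atrn at -1.23, each with an adjusted limma p of 0.808. Slc22a3, Rab37 and Rap1gap2 were dim, at mean log2 levels of 2.89, 2.93 and 4.50 beside a lowest array median of 5.07. Acsm2 levels overlapped between doses: the lowest, median and highest were 6.17, 7.32 and 7.62 in vehicle, 6.47, 7.21 and 7.80 at 97.1 mg/kg, and 7.02, 7.17 and 7.87 at 970 mg/kg.

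The slope rests on the top doses because Cyp1a1 varied most there. When the Cyp1a1 deviations were divided by their SD within each dose, so that every dose weighed alike, 3 of 31041 transcripts passed (0.00966%), all lower where Cyp1a1 was higher. They were Ptgs1, which encodes cyclooxygenase 1, at -0.18 log2 units per SD of Cyp1a1 (-0.25 to -0.12), Spic, a transcription factor gene known in mouse from iron-recycling macrophages, at -0.22 (-0.30 to -0.14), and Irgm, an interferon-inducible GTPase gene, at -0.28 (-0.38 to -0.18). Each had a limma adjusted p of 0.0265. In this scaled fit 2317 transcripts, or 7.46%, had an unadjusted limma p under 0.05, beside 5.14% without scaling. The calls depended on single animals: leaving out 1 animal gave between 0 and 78 calls, 0 in 11 of 36 cases and 78 without replicate 3 at 9.71 mg/kg. All 3 genes stayed called in 23 of the 36. Without scaling, 7 passed in the vehicle to 9.71 mg/kg animals alone (0.0226%), 1 in the 970 mg/kg animals alone (0.00322%), which was Hsd17b6, a steroid dehydrogenase gene, and 1 with array weights (0.00322%), an unnamed probe set.

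**Figure D3:**
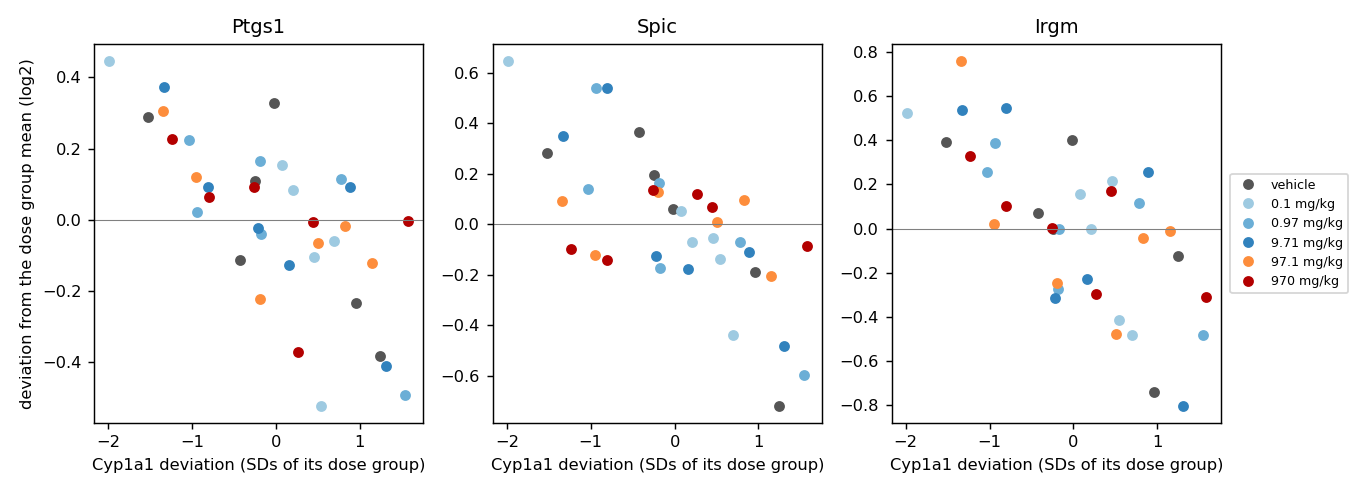
Log2 deviation of Ptgs1, Spic and Irgm from their dose group mean (vertical axes) against the Cyp1a1 deviation in SDs of its dose group (horizontal axes), 1 point for each of the 36 animals, coloured by dose. Points fall from upper left to lower right, and for Spic the orange and red points of 97.1 and 970 mg/kg lie nearly level.

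The slope of Spic was also fitted at the low and the top doses apart. It was -0.01 per SD (-0.10 to 0.08, limma adjusted p = 0.996) in the 12 animals at 97.1 and 970 mg/kg, and -0.33 (-0.41 to -0.25, adjusted p = 3.341e-04) in the 24 vehicle to 9.71 mg/kg animals. Ptgs1 had -0.11 at the top doses and -0.22 in the 24 others, and Irgm had -0.23 at the top doses and -0.31 in the 24 others. Whether these slopes differ between the low and the top doses was not tested. In those 24 animals 9 transcripts passed (0.029%), 8 negative and 1 positive. The positive one was Ky at 0.15, and the negative ones besides Spic and Ptgs1 were Igtp at -0.27, Smarcad1 at -0.23, Dtx3l at -0.23, C2h1orf162 at -0.21, Dhx58 at -0.19 and an unnamed probe set at -0.15. With 1 animal left out there were 2 to 115 calls there, 115 of them without replicate 3 at 9.71 mg/kg. Spic stayed called in all 24 cases, at slopes of -0.34 to -0.29. Spic, Ptgs1 and Irgm had been picked by their slopes over all animals, these 24 included. The split by dose was chosen after seeing the data. The adjusted p of Spic in these 24 animals and its repeated calls are therefore not independent support for its slope.

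In those 24 animals both Cyp1a1 and Spic lay below the array's own median, where signals are dim. Over all doses the mean log2 level of Spic was 4.24, while the lowest array median was 5.07. Over all 6 dose groups, the animal with the highest Cyp1a1 had its group's lowest Spic in 5, lowest Irgm in 4 and lowest Ptgs1 in 3. The animal with the lowest Cyp1a1 had its group's highest Spic in 1 of the 6, highest Irgm in 3 and highest Ptgs1 in 5. In vehicle livers, for example, replicate 4 had the highest Cyp1a1 with the lowest Spic, 3.51, and the lowest Ptgs1, 6.53, while its Irgm level of 7.34 was above the group's lowest of 6.73. Replicate 4 at 970 mg/kg had the highest Cyp1a1 of its group with the lowest Irgm, 7.59, while its Spic level of 4.08 and its Ptgs1 level of 7.06 lay above the lowest values of 4.03 and 6.69. The 3 genes were chosen for their slopes on Cyp1a1, so these counts are a description.

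The slopes of macrophage and interferon markers were negative too. Of 10 macrophage markers 8 were measured, and all 8 had a negative slope on Cyp1a1, with a median of -0.15 log2 units per log2 unit, beside 50.1% negative and a median of 0.00 over all probe sets. They included Clec4f, a receptor of Kupffer cells, at -0.24 and the lysosomal marker Cd68 at -0.22. All 9 interferon response genes had a negative slope, with a median of -0.35, among them the antiviral GTPase gene Mx2 at -0.62 and Rsad2, an antiviral enzyme gene, at -0.26. None of these passed, with limma adjusted p of 0.936 or more for each. In each list 4 had an unadjusted p under 0.05, beside 5.14% of all probe sets. Both lists were chosen with earlier results of these data known. Genes of a list were measured in the same animals and are not independent of one another, so the counts of these lists are a description.

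With every dose weighing alike, the medians in the 12 top-dose animals were -0.07 per SD for the macrophage markers (7 of 8 negative) and -0.14 for the interferon genes (9 of 9), beside 52.0% negative over all probe sets. In the 24 others they were -0.20 (8 of 8) and -0.40 (9 of 9), beside 43.9%. The mean log2 level of the macrophage list lay between 7.59 and 8.45 in vehicle, between 7.87 and 8.45 at 97.1 mg/kg and between 7.86 and 8.38 at 970 mg/kg. That of the interferon list lay between 5.37 and 6.84 in vehicle, between 5.35 and 6.85 at 97.1 mg/kg and between 5.93 and 6.53 at 970 mg/kg. These ranges overlap, but most genes of both lists had higher group means than vehicle. At 970 mg/kg 8 of 8 macrophage markers lay above vehicle (median log2 difference 0.20) and 8 of 9 interferon genes (0.51), beside 48.1% of all probe sets. At 97.1 mg/kg these were 6 of 8 (0.10) and 8 of 9 (0.26), beside 50.5%. No gene of either list passed at these doses. The part of macrophage content or of an interferon response in the slopes of Ptgs1, Spic and Irgm was not tested.

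**Figure D4:**
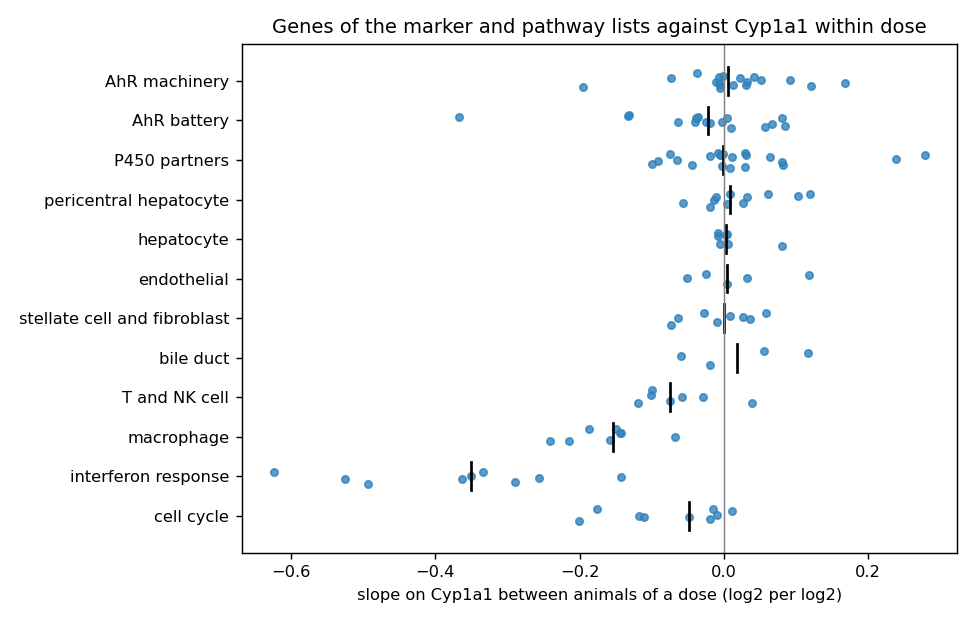
Slope on Cyp1a1 between animals of a dose, in log2 units per log2 unit of Cyp1a1 (horizontal axis), for each measured gene of the lists named on the vertical axis, with 1 point per gene and a bar at the list's median. Points of the macrophage and interferon response lists all lie left of 0, while the hepatocyte, AhR and P450 lists straddle it.

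Other marker lists were closer to 0. The T and NK cell list had 6 of 7 slopes negative (median -0.08), the cell cycle list 8 of 9 (-0.05), and the neutrophil and B cell lists 3 of 3 and 2 of 2. The hepatocyte list had 3 of 7 negative with a median of 0.00, the endothelial list 2 of 5, the stellate cell and fibroblast list 4 of 8, the bile duct list 2 of 4 and the erythroid list 0 of 3. No marker passed in any of them.

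At 970 mg/kg 9 of 9 cell cycle genes lay above vehicle, with a median log2 difference of 0.52, beside 48.1% above vehicle and a median of 0.00 over all probe sets. Ccnb1, the mitotic cyclin B1 gene, was 0.65 above vehicle (limma adjusted p = 0.859). No gene of the list passed, and 8 of 9 had an unadjusted p under 0.05, beside 4.87% of all probe sets. At 97.1 mg/kg 4 of 9 lay above vehicle, with a median log2 difference of -0.02. The list was chosen with earlier results of these data known. Its genes were measured in the same animals and are not independent of one another, so these counts are a description. The list's mean level lay between 5.05 and 6.50 in the 970 mg/kg livers and between 5.13 and 5.49 in the vehicle livers. Its part in the levels of Cyp1a1 and Cyp1a2 was not tested.

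No gene of the AhR machinery passed the test against vehicle at the top doses. Of 20 listed genes of the AhR machinery, its receptor, partners, chaperones, coactivators and repressors, 18 were measured, with 0 called by limma at 970 or 97.1 mg/kg (0.00644% of all probe sets passed at each of these doses). At 970 mg/kg 13 of the 18 lay above vehicle, with a median log2 difference of 0.02, beside 48.1% and 0.00 over all probe sets. At an unadjusted p under 0.05 there was 1 at 970 mg/kg, Tiparp, and 0 at 97.1 mg/kg, beside 1513 and 1684 over all probe sets. Tiparp, which encodes an ADP-ribosyltransferase that represses AhR and is itself an AhR target, averaged 8.48 at 970 mg/kg and 8.15 in vehicle, a difference of 0.33 (0.02 to 0.64, adjusted p = 0.966). The coactivator gene Ncoa1 differed by -0.10, the transcription factor gene Sp1 by -0.10, the Hsp90 co-chaperone gene Ptges3 by 0.06 and Rb1 by 0.12.

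Between animals of a dose 9 of these 18 slopes on Cyp1a1 were positive and 9 negative. The lowest p belonged to the corepressor gene Nrip1 at -0.20 (-0.32 to -0.07, limma adjusted p = 0.923). Sp1 had -0.07 and Arnt2, a paralog of ARNT, had 0.12, each with an adjusted limma p of 0.942. The level of the receptor's own transcript, Ahr, had a slope of 0.17 with an adjusted limma p of 0.979 and was named after its value was seen.

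Further known AhR targets were below the threshold as well. Of 22 genes of the AhR battery other than the 2 described, 16 were measured and none passed at either top dose. At an unadjusted p under 0.05 there was 1 at 970 mg/kg and 2 at 97.1 mg/kg, beside 4.87% and 5.42% of all probe sets. At 970 mg/kg 8 of the 16 lay above vehicle, beside 48.1% of all probe sets, with a median of -0.02. Nqo1, a quinone reductase gene, averaged 8.28 at 970 mg/kg and 7.60 in vehicle, a difference of 0.68 (-0.02 to 1.38, limma adjusted p = 0.966). Selenbp1, a selenium-binding protein gene, differed by 0.13, the glutathione transferase gene Gstp1 by -0.12, Tnfaip2 by -0.19 and Ugdh, which makes UDP-glucuronic acid, by 0.09. The slopes on Cyp1a1 were positive in 6 and negative in 10, with Tnfaip2 at -0.13 (limma adjusted p = 0.939), the aldehyde dehydrogenase gene Aldh3a1 at 0.09 and Nqo1 at -0.37.

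Enzymes and regulators that P450s depend on were measured for 21 of 23 listed genes, covering electron donors, heme synthesis and breakdown, and the receptors PXR and CAR. None passed. At each top dose 2 had an unadjusted p under 0.05, beside 4.87% of all probe sets at 970 mg/kg and 5.42% at 97.1 mg/kg. Above vehicle at 970 mg/kg lay 9 of the 21, beside 48.1% of all probe sets, with a median of -0.01. Cyb5a, which encodes cytochrome b5, an electron donor to P450s, differed by 0.17 (0.10 to 0.24, limma adjusted p = 0.327). Hmox1, the heme oxygenase gene, differed by 0.26, the CAR gene Nr1i3 by 0.35, Hnf4a by -0.18 and Hmox2 by -0.09.

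Por, the gene of the reductase that donates electrons to all microsomal P450s, had a slope on Cyp1a1 of 0.28 (0.10 to 0.46, limma adjusted p = 0.923). Pgrmc2, a heme-binding membrane protein gene, had -0.09, and Alas1, the first enzyme of heme synthesis, had 0.24 (adjusted p = 0.953). In this list 10 slopes were positive and 11 negative.

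Pericentral hepatocyte genes, which share the zone where Cyp1a2 is chiefly made, were measured for 11 of 12. At 970 mg/kg 7 of the 11 lay above vehicle, beside 48.1% of all probe sets, with a median of 0.02. None passed, and 1 had an unadjusted p under 0.05, beside 4.87% of all probe sets. The zonal transcription factor gene Tbx3 differed by -0.59 (-1.04 to -0.15, limma adjusted p = 0.966), and Oat, ornithine aminotransferase, by 0.28. The slopes were positive in 7 of 11, with the glutamine synthetase gene Glul at 0.12 (adjusted p = 0.952) and the vitamin C synthesis gene Gulo at 0.06 (adjusted p = 0.963).

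Finally, the genes whose 6 group means ran most like those of Cyp1a1 were ranked among 9570 genes with a mean level at or above the median. Cyp1a2 itself had r = 0.991 over the 6 group means, and the 4 highest were Ckap5 at 0.993, Cyb5a at 0.992, Nsd2 at 0.983 and Pmvk at 0.969. With 6 points, of which the top doses set the line, such values describe shape and carry no test. Ckap5 encodes a microtubule polymerase, Nsd2 a histone methyltransferase and Pmvk an enzyme of the mevalonate pathway.

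In size they were far from either P450. Cyb5a had log2 levels with a lowest, median and highest value of 13.28, 13.35 and 13.42 in vehicle, 13.35, 13.45 and 13.49 at 97.1 mg/kg, and 13.46, 13.51 and 13.62 at 970 mg/kg. The 970 mg/kg animals lay above all vehicle animals, as in 0.116% of all probe sets, and the 97.1 mg/kg animals did not. Cyb5a was picked by its group means, so nothing is read from this separation. The difference at 970 mg/kg was 0.12 for Ckap5, 0.12 for Nsd2 and 0.09 for Pmvk, each with an interval that holds 0 and limma adjusted p of 0.966 or more, and their groups overlapped. Their slopes on Cyp1a1 between animals of a dose were -0.02 for Ckap5, 0.03 for Cyb5a, -0.01 for Nsd2 and 0.11 for Pmvk, with adjusted p of 0.988 or more.

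**Figure D5:**
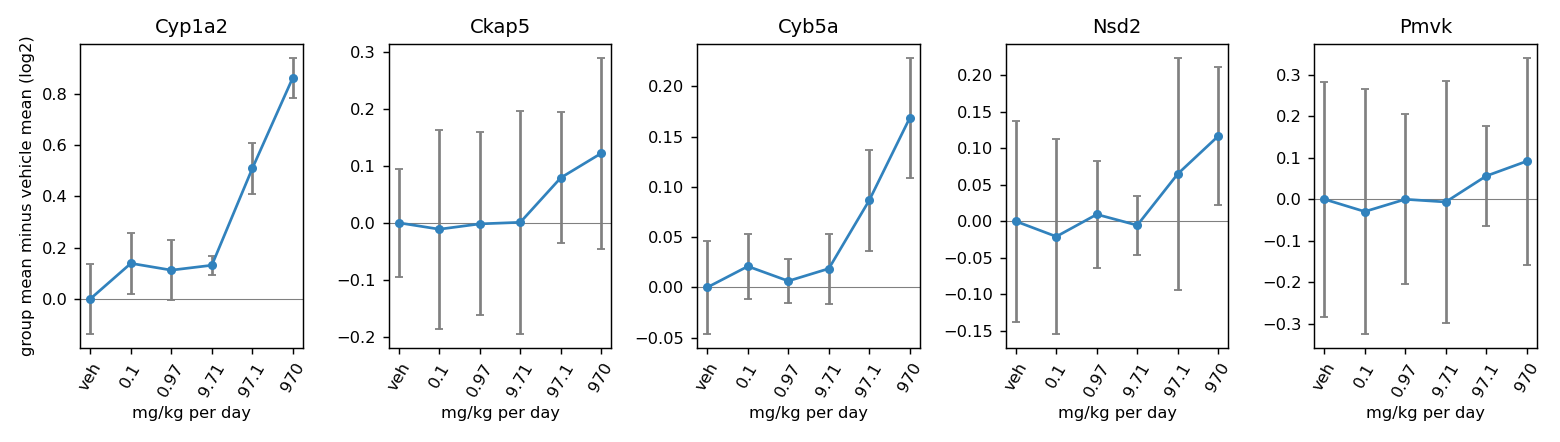
Group mean minus vehicle mean in log2 units (vertical axes, each on its own scale) against dose in mg/kg per day for Cyp1a2 and the 4 genes whose group means ran most like those of Cyp1a1, with SD bars (n = 6). All 5 profiles bend upward at 97.1 mg/kg, but the difference at 970 mg/kg is 0.86 for Cyp1a2 and 0.09 to 0.17 for the others.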

How the data were processed

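The authors deposited 1 log2 signal for every probe set and array. RMA and affy are named in the submitters' processing notes, without versions. The genome build is not given in the sources used here, and 57 control probe sets were left out of 31099. Of the 31042 analysed, 20826 name 1 gene, 436 several and 9780 none by the platform annotation, and the RefSeq table of rat genes holds the Entrez ID of 20758 of the 20826. The number of arrays limits the precision.

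Both genes and all gene lists were chosen with earlier results of these data known. Each dose was compared with vehicle in 1 limma 3.58.1 model over 36 arrays (R 4.3.3, lmFit and eBayes, two-sided, Benjamini-Hochberg adjustment over all probe sets, threshold 0.05). Slopes were fitted on the log2 level of Cyp1a1 or Cyp1a2 with dose group as a factor. The slope difference between 970 and 97.1 mg/kg came from a fit with a slope per dose. Correlations within a dose used exact permutation tests (scipy 1.17.1, two-sided, adjusted over 6 groups, smallest possible p 0.001389).

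Named genes were, per slope fit, the 3 of smallest p in each direction where fewer passed, the 4 of most similar group means, up to 5 members per AhR and P450 list by p at 970 mg/kg and up to 3 by p of the slope, and up to 2 per marker list (of these, chiefly by p of the slope). A gene with several probe sets was taken by the brightest. Ahr and the transcripts called under an alternative are exceptions. Slope and dose fits were tested on simulated data: over 31041 probe sets, 61% of 100 slopes of 0.2 and 96% of 100 slopes of 0.4 were recovered, with 10 false calls. The simulated noise was normal and independent between probe sets, and all slopes were planted together. Correlation between transcripts was not simulated, so these shares hold for that setting and need not hold for the livers.

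Alternatives covered the replicate block, normalization, variance model, array weights, the beta-actin covariate, a filter on low signals, thresholds of 0.01 and 0.1, subsets of doses and each sample left out. The fits outside 97.1 mg/kg, the scaled fits in the low 24 and top 12 samples and the correlations with 1 top-dose sample left out were chosen after seeing the data.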

Additional observations from a re-analysis of the deposited data

Results flagged for a closer look

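In 7 of the 132 groups of 6 samples examined, 1 animal stood apart from the rest of its group by a gap that is above Dixon's critical value as a share of the group's range. Chance gives about 1 in 20, or 6.6 of 132, so the number of such groups is close to it. All values are log2 levels. Cyp1a1 in replicate 4 at 0.1 mg/kg was the lowest at 4.18, with the next animal at 4.62, and this is the animal that carries the correlation with Cyp1a2 at that dose. Slc41a3 was lowest in replicate 2 at 9.71 mg/kg at 3.97, with the next at 4.34. Rfwd3 and Ptgs1 were both lowest in replicate 1 at 0.97 mg/kg, at 4.61 with the next at 5.00 and at 6.66 with the next at 7.11. Slc22a3 was lowest in replicate 1 at 97.1 mg/kg at 2.73, with the next at 2.96. Ckap5 was highest in replicate 3 at 97.1 mg/kg at 6.35, with the next at 6.13. Nsd2 was lowest in replicate 5 of vehicle at 5.74, with the next at 6.01.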

How the results depend on the processing

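The differences of Cyp1a1 and Cyp1a2 from vehicle at 97.1 and 970 mg/kg kept their direction under every alternative run. With each sample left out in turn, Cyp1a1 lay between 6.03 and 6.39 at 970 mg/kg and between 3.25 and 3.77 at 97.1 mg/kg, and Cyp1a2 between 0.82 and 0.89 and between 0.46 and 0.53. At the low doses Cyp1a1 lay between 0.25 and 0.34 at 9.71, 0.09 and 0.20 at 0.97 and -0.02 and 0.11 at 0.1 mg/kg, and Cyp1a2 between 0.08 and 0.15, 0.07 and 0.15, and 0.09 and 0.17. The 9.71 mg/kg difference of Cyp1a2 was 0.0842 without vehicle replicate 5. The calls at 970 mg/kg numbered 2 to 3, with Vamp1 (-0.44) added without vehicle replicate 4 and an unnamed probe set (-0.33 and -0.34) without vehicle replicate 2 or 970 mg/kg replicate 6. The transcripts called to follow Cyp1a1, 0 in the model reported first, numbered 3 with scaled deviations, 7 in the vehicle to 9.71 mg/kg samples, 9 there with scaled deviations, 1 at 970 mg/kg alone (Hsd17b6, -1.06) and 1 with array weights (an unnamed probe set, -0.19). The sets of 7 and 9 share 5. For Cyp1a2 the leave-one-out counts were 0 to 1. The correlation at 0.1 mg/kg turned to -0.41 without the 2 farthest animals. Leaving out 1 animal, it lay between 0.795 and 0.959 at 970 mg/kg and between 0.730 and 0.929 at 97.1 mg/kg. Residuals of samples that share a number had a mean correlation of 0.0048 between groups (90 pairs, -0.25 to 0.26). On average the number did not pair them, but a mean does not show whether some of these samples were handled together. With the replicate block the slope of Cyp1a2 on Cyp1a1 was 0.09 (0.02 to 0.17), with 0 calls. Cyp1a1 signals at vehicle to 9.71 mg/kg lie below the array's own median, which limits what its spread at low doses can show.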
